A study of Mus musculus with 9 samples.

Results

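Uptake carriers bring organic anions from the blood into liver cells, and 6 of their genes were followed here by gene symbol: Slco1a1, Slco1a4, Slco1b2, Slco2a1, Slco2b1 and Slc22a7. All 6 were found among the 18148 symbols of the deposited expression table, and all 6 passed the filter on low values that left 10388 genes for testing. The study asked whether green tea polyphenols lessen the liver injury that the plasticizer di(2-ethylhexyl) phthalate causes in mice. Liver messenger RNA of C57BL/6J mice was sequenced in 9 libraries, 3 from each of 3 groups that were dosed by gavage over 8 weeks. DEHP_GTP mice, labelled Treatment, received 1500 mg/kg/d of the phthalate in corn oil together with 70 mg/kg of the polyphenols. DEHP mice received 1500 mg/kg/d of the phthalate in corn oil. Control mice received distilled water, so the phthalate and its oil cannot be told apart in any comparison with them. Groups given corn oil alone or polyphenols alone were not analysed here, and no source used here gives age or sex. Whether each library is a different animal is not stated in the labels, and p-values therefore cover only library-to-library spread, which may be technical.

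The Slco genes encode organic anion transporting polypeptides (OATPs), membrane carriers that exchange organic anions without direct use of ATP. In liver they sit mainly on the sinusoidal, blood-facing side of hepatocytes and take up bile acids, bilirubin, steroid and thyroid hormone conjugates and many drugs. Slc22a7 encodes OAT2, an organic anion transporter of the SLC22 family, which also holds the organic cation transporters. None of the 6 is chiefly a cation carrier.

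Each value is the authors' normalized expression, a signal of the FPKM or TPM kind whose exact unit is not stated. Values summed to between 789076 and 863300 a library, and depth in reads is unknown. Fold changes are on the scale of log2(value + 1), which understates changes of low genes, and were tested with limma across all 10388 genes with Benjamini-Hochberg adjustment. Genes with an adjusted p below 0.05 are described as called. Albumin (Alb), the defining hepatocyte product, was at 41296 to 46970 in DEHP_GTP, 38289 to 40517 in DEHP and 50193 to 55555 in Control libraries. It fell by 0.40 under DEHP against Control (SE 0.09, limma adjusted p = 0.00995), and was not called under DEHP_GTP against Control (-0.27, SE 0.09). The Control libraries were not alike: the fat cell transcript Adipoq (adiponectin) was at 33.7 and 61.0 in Control replicates 1 and 2 and listed at 0 in the other 7 libraries. In bulk liver RNA, fewer cells of a type and less RNA per cell cannot be told apart.

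Under DEHP against Control, 3 of the 6 carriers fell and none rose. Slc22a7 fell to 0.217 of its Control mean, Slco1a1 to 0.142 and Slco2b1 to 0.762. Over all genes tested, 25.5% were called, 21.6% higher and 3.91% lower. That balance depends on scaling. The deposited scale gave 2248 genes called higher and 406 lower, a scale without the Mup genes gave 802 higher and 1000 lower, quantile normalization gave 922 higher and 833 lower, and median centring gave 1271 higher and 736 lower. The groups did not overlap, with every DEHP library lower, for 4 of the 6 carriers, the 3 called ones and Slco2a1, against 7.65% of all genes. The median log2 fold change of the 6 was -0.46, beside 0.12 over all genes. Without DEHP replicate 1 that median was -0.26, and without DEHP replicate 3 it was -0.71. With DEHP and polyphenols together, Slc22a7 alone was called against Control, and against DEHP alone no carrier was called.

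**Figure D1:**
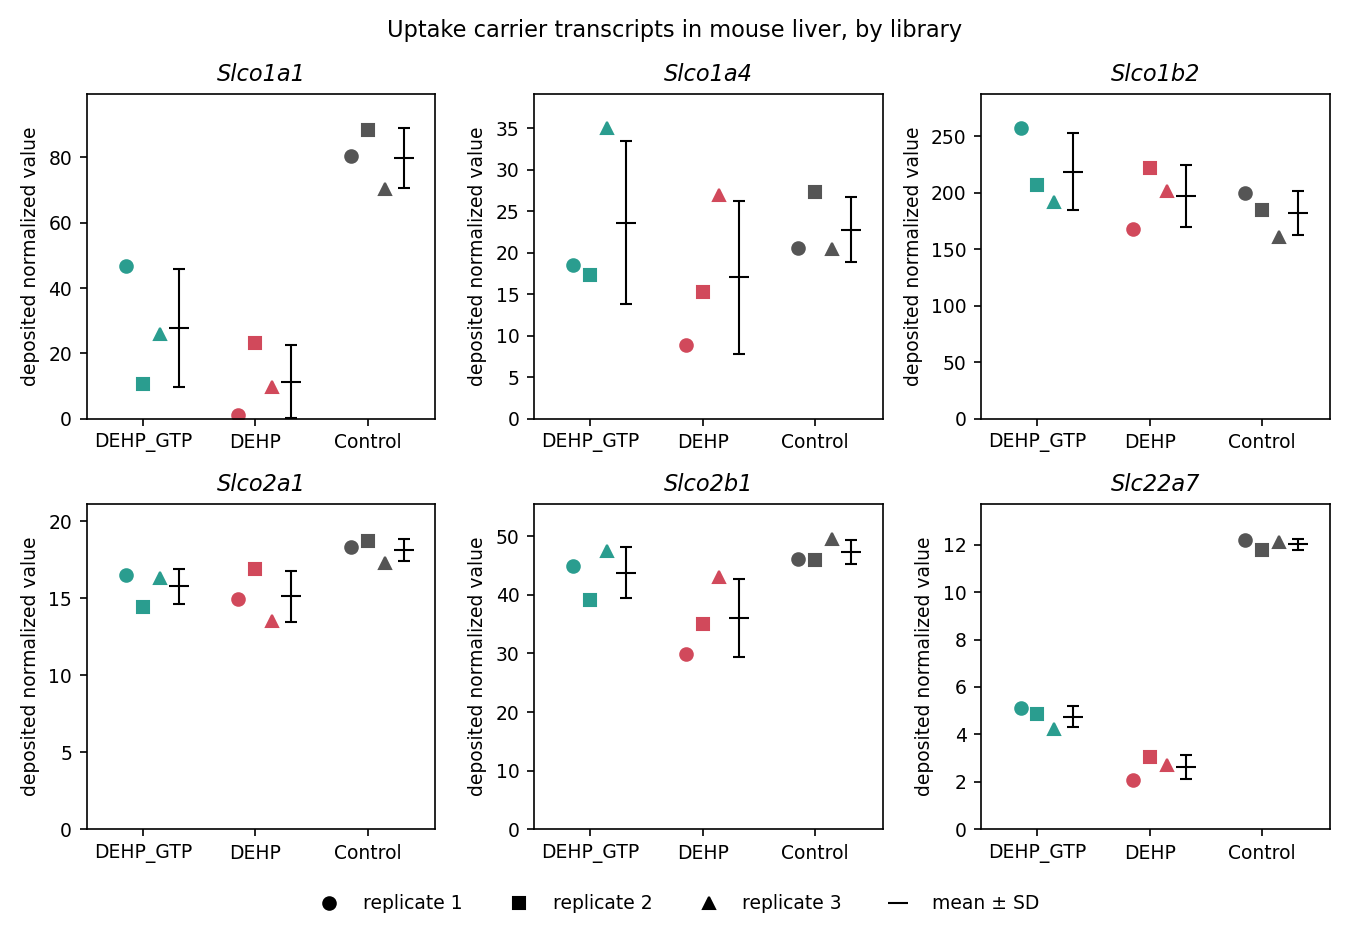
Deposited normalized value (vertical axis, from 0, a different scale in each panel) of the 6 carriers in each liver library, with replicates as symbols and the group mean ± SD beside them. Slc22a7 forms 3 separate levels, at 4.24 to 5.09 in DEHP_GTP, 2.06 to 3.06 in DEHP and 11.76 to 12.2 in Control, while Slco1b2 and Slco1a4 overlap between all groups.

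Slc22a7 (OAT2) carries small organic anions and nucleotides such as cyclic GMP. It was at 5.09, 4.87 and 4.24 in the DEHP_GTP libraries, 2.06, 3.06 and 2.69 in the DEHP libraries, and 12.2, 11.76 and 12.11 in the Control libraries. The 3 groups did not overlap, with DEHP lowest, DEHP_GTP between and Control highest. Means were 4.73 ± 0.441 in DEHP_GTP, 2.603 ± 0.506 in DEHP and 12.02 ± 0.232 in Control livers (SD, n = 3 each). Against Control, Slc22a7 fell by 1.86 on the log2 scale under DEHP (SE 0.11, limma adjusted p = 3.9e-05), and its p-value ranked 2 among the 10388 genes. The call held in all 20 other settings tried, with log2 fold changes between -2.18 and -1.75. Set against Control replicate 3 only, which has Adipoq listed at 0, it was -1.87 (SE 0.18). Under DEHP_GTP it fell by 1.19 against Control (SE 0.11, limma adjusted p = 0.00103), ranking 4, and the DEHP_GTP mean was 0.394 of the Control mean. That call held in 19 of 20 settings and was lost with Control replicate 3 as the lone control, where the log2 fold change was -1.20 with an adjusted p of 0.0556; over the 20 settings the adjusted p ran from 0.000516 to 0.0556. In DEHP_GTP against DEHP, Slc22a7 was at 0.68 (SE 0.11, 95% interval 0.43 to 0.92), with a mean 1.82 times that of DEHP livers. Every DEHP_GTP library lay above every DEHP library, as for 8.89% of all genes. Its p-value ranked 13, but its adjusted p of 0.0761 did not pass. It passed in 3 of 19 settings, after rescaling to equal totals (0.74), after rescaling without the Mup genes (0.77) and without DEHP replicate 2 (0.77), and its adjusted p ran from 0.0249 to 0.245 over the 19.

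**Figure D2:**
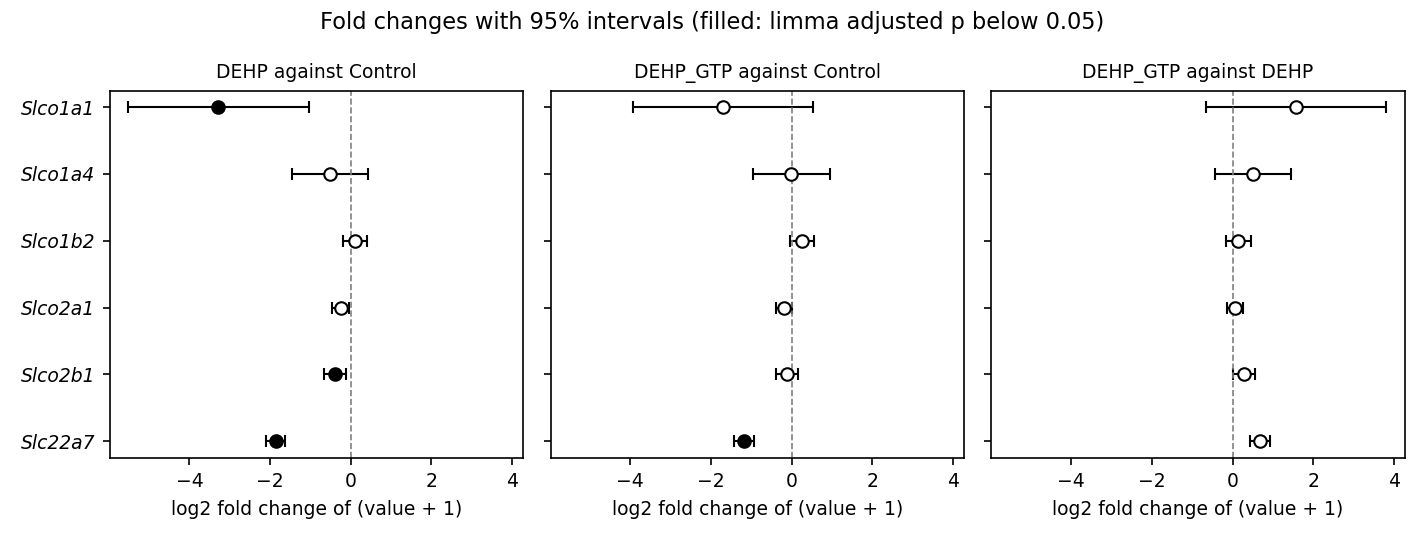
Log2 fold change of (value + 1) with its 95% interval (horizontal axis) for each carrier in the 3 comparisons; filled points passed an adjusted p of 0.05. Slc22a7 is filled against Control in both treated groups, and no point is filled in DEHP_GTP against DEHP.

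Slco1a1 (OATP1A1), which takes up bile acids and steroid conjugates, is known for higher expression in male than in female mouse liver. It was at 46.6, 10.56 and 26.02 in the DEHP_GTP libraries, 1.2, 23.2 and 9.65 in the DEHP libraries, and 80.4, 88.42 and 70.15 in the Control libraries. Every treated library lay below every Control library, and both treated groups were widely spread. The highest DEHP library was 19.3 times the lowest, and the highest Control library 1.26 times the lowest. Slco1a1 fell by 3.28 on the log2 scale under DEHP (SE 0.93, 95% interval -5.51 to -1.05, limma adjusted p = 0.0446), with a mean of 11.35 ± 11.10 in DEHP and 79.66 ± 9.16 in Control livers (SD, n = 3 each). This call was the least firm of the 3: it held in 6 of 20 settings, with adjusted p from 0.0141 to 0.246, although the log2 fold change stayed between -4.05 and -2.32. Of the 9 libraries, leaving out DEHP replicate 2 alone kept it. Without Control replicates 1, 2 and 3 the values were -3.27, -3.20 and -3.37, without DEHP replicates 1 and 3 they were -2.32 and -3.46, and without any one DEHP_GTP library -3.28, none of them called. Set against Control replicate 3 only, it was -3.10 (SE 1.48). Under DEHP_GTP against Control the log2 fold change was -1.71 (SE 0.93, limma adjusted p = 0.279), with a mean of 27.73 ± 18.08 in DEHP_GTP livers (SD, n = 3). Against DEHP it was 1.57 (SE 0.93, 95% interval -0.66 to 3.80, limma adjusted p = 0.487), so at this spread a difference between the treated groups was not detectable. Without DEHP replicate 1 this value was 0.62, without DEHP replicate 2 it was 2.34, and without DEHP_GTP replicate 1 it was 1.09.

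DEHP replicate 1, the library with the lowest Slco1a1, also held the lowest value of its group for 5 of the 6 carriers, all but Slco2a1. Among 27 tested genes of a list with higher expression in male mouse liver, chosen with earlier results of these data known, it held the lowest DEHP value for 22. DEHP_GTP replicate 2, the lowest of its group for Slco1a1, held the lowest value for 20 of those 27 and for 4 of the 6 carriers. How often each library was lowest over all genes was not counted, so these counts have no baseline. The deposited total of DEHP replicate 1, 810583, was the lowest of its group, and that of DEHP_GTP replicate 2, 801286, the highest of its group. The Mup genes, male-enriched urinary proteins, took 6.53% to 11.6% of the total in DEHP_GTP, 2.37% to 8.49% in DEHP and 16.1% to 20.3% in Control libraries. Their part in the Slco1a1 result was not tested.

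Slco2b1 (OATP2B1), a carrier of steroid sulfates such as estrone sulfate, was at 44.88, 39.06 and 47.51 in the DEHP_GTP libraries, 29.98, 34.98 and 43.14 in the DEHP libraries, and 46.17, 46.03 and 49.61 in the Control libraries. All DEHP libraries lay below all Control libraries, and the DEHP_GTP libraries overlapped with both. Slco2b1 fell by 0.40 under DEHP (SE 0.12, limma adjusted p = 0.0385), with means of 36.03 ± 6.64 in DEHP and 47.27 ± 2.03 in Control livers (SD, n = 3 each). The call held in 13 of 20 settings and the log2 fold change stayed between -0.62 and -0.28, with adjusted p from 0.00897 to 0.17. It was lost without Control replicate 1 (-0.41), 2 (-0.42) or 3 (-0.36), without DEHP replicate 1 (-0.28) or 2 (-0.38), with Control replicate 3 as the lone control (-0.47) and with no filter on low values. The log2 fold change was -0.11 (SE 0.12, 95% interval -0.38 to 0.16) in DEHP_GTP against Control. It was 0.29 (SE 0.12, limma adjusted p = 0.318) in DEHP_GTP against DEHP.

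Slco2a1, the prostaglandin transporter, clears prostaglandins from the extracellular space and is well known from endothelium. It was at 16.53, 14.46 and 16.33 in the DEHP_GTP libraries, 14.99, 16.88 and 13.55 in the DEHP libraries, and 18.35, 18.76 and 17.33 in the Control libraries. Every library of both treated groups lay below every Control library, by a small margin. The log2 fold change was -0.25 under DEHP (SE 0.09, limma adjusted p = 0.0684) and -0.19 under DEHP_GTP (SE 0.09, limma adjusted p = 0.196), so neither passed. Under DEHP it did pass in 4 of 20 settings, after quantile normalization (-0.44), rescaling without the Mup genes (-0.45), centring on the median gene (-0.36) and without DEHP replicate 2 (-0.33), and its adjusted p ran from 0.0131 to 0.417. In DEHP_GTP against DEHP it was at 0.06 (95% interval -0.14 to 0.26). The 20 endothelial markers summed to between 169 and 200 in DEHP_GTP, 197 and 260 in DEHP and 184 and 238 in Control libraries, and of the 19 tested none was called in any comparison. Of these 19, 8 were below 0 in DEHP against Control (median 0.02), 17 in DEHP_GTP against Control (median -0.17) and 18 in DEHP_GTP against DEHP (median -0.19), and their part in the Slco2a1 values was not tested.

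Slco1b2 (OATP1B2), the mouse counterpart of the human liver carriers OATP1B1 and OATP1B3 and an importer of bilirubin and bile acids, was the most abundant carrier. It was at 257.03, 207.25 and 191.53 in the DEHP_GTP libraries, 167.77, 221.97 and 201.78 in the DEHP libraries, and 199.88, 185.07 and 161.25 in the Control libraries. All 3 groups overlapped. The log2 fold change was 0.11 under DEHP (SE 0.14, 95% interval -0.19 to 0.41), a sign that turned after quantile normalization, rescaling without the Mup genes and centring on the median gene. It was 0.26 under DEHP_GTP against Control (SE 0.14, 95% interval -0.05 to 0.56) and 0.15 in DEHP_GTP against DEHP (95% interval -0.16 to 0.45). None of these passed the test.

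Slco1a4 (OATP1A4), a carrier of bile acids and digoxin that PXR activators are known to induce in rodent liver, was not called in any comparison. It was at 18.54, 17.36 and 34.98 in the DEHP_GTP libraries, 8.9, 15.24 and 26.95 in the DEHP libraries, and 20.52, 27.32 and 20.48 in the Control libraries. Replicate 3 was the highest library in both treated groups, and all groups overlapped. The log2 fold change was -0.51 under DEHP (SE 0.41, 95% interval -1.46 to 0.43) and -0.01 under DEHP_GTP against Control (95% interval -0.96 to 0.94), the last with a sign that turned in 5 of 20 settings. In DEHP_GTP against DEHP it was 0.51 (95% interval -0.44 to 1.46). Without DEHP replicate 1 the value was -0.15 in DEHP against Control and 0.14 in DEHP_GTP against DEHP, without DEHP replicate 3 they were -0.89 and 0.89, and without DEHP_GTP replicate 3 the last was 0.20. All 3 intervals were wide, and a difference was not detectable at this spread.

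Slco1b2, Slco1a4 and Slco1a1 lie in the same cluster on mouse chromosome 6, in that order in RefSeq (GRCm38.p6), with the predicted gene Gm5724 between Slco1b2 and Slco1a4. The near relatives Slco1a5 and Slco1a6 were listed at 0 or at most 0.05 in all 9 libraries; no source used here says how reads were shared between such copies, so values within the cluster are uncertain to that extent. The 3 genes differed in their values under DEHP, from a call for Slco1a1 to an overlap of groups for Slco1b2 and Slco1a4, although no test of these differences was run. Their promoters are shown for that reason, as the 250 bases before the start in RefSeq (GRCm38.p6), at chr6:141946963-141947212 on the minus strand, chr6:141856221-141856470 on the minus strand and chr6:141629268-141629517 on the plus strand. Capitals mark matches to AGGTCA (or TGACCT on the other strand), the core motif of many nuclear receptors, and to the STAT5-type palindrome TTCNNNGAA.
Slco1a1: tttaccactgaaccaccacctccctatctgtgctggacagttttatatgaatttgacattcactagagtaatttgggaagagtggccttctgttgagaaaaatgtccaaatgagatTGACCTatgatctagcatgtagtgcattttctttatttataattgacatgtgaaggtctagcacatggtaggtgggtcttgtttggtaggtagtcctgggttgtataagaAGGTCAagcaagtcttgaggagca
Slco1a4: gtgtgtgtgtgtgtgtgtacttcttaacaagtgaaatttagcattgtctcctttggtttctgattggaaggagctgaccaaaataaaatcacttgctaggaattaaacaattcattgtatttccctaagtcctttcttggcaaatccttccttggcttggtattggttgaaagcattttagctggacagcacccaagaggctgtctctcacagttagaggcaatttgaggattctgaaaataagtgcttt
Slco1b2: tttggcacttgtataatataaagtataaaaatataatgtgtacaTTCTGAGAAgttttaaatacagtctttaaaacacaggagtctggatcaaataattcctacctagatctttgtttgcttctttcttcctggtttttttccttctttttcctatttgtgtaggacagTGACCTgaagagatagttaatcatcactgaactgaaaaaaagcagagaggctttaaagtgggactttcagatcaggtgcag
The window of Slco1a1 held 2 AGGTCA matches, that of Slco1b2 held 1 AGGTCA match and 1 STAT5-type match, and that of Slco1a4 held neither. Of 32851 such windows in the RefSeq table, 14.0% held AGGTCA and 7.02% a STAT5-type match, so both are common. No window of a carrier held direct repeats of AGGTCA with 1, 3 or 4 bases between them, the HNF1-type palindrome of GTTAAT and ATTAAC with 1 base between them, or the E-box CACGTG on either strand, which 0.0335%, 0.00609%, 0.0152%, 0.00913% and 6.02% of all windows held. A match describes letters only and is not a binding site, and its absence in 250 bases says nothing of the factor. The table gave 3 windows for Slco2b1 and 1 for Slco2a1, not printed here, and Slc22a7 is named only.

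The 5 Slco carriers were also summed in each library. Over these genes, the level was 329.5 ± 48.80 in DEHP_GTP, 276.7 ± 47.45 in DEHP and 349.9 ± 26.93 in Control livers (SD, n = 3 each), and the libraries of DEHP_GTP overlapped with both others. Slco1a1 made up 8.01% ± 4.25 of that sum in DEHP_GTP, 3.75% ± 3.47 in DEHP and 22.7% ± 1.26 in Control livers. Slco1b2, whose own level was not called different, made up 66.4% ± 5.65 in DEHP_GTP, 71.6% ± 3.48 in DEHP and 52.0% ± 2.38 in Control livers. The shares of the other 3 averaged between 4.83% and 13.6% in every group. Every DEHP library had a lower sum than every Control library, with 222.8 in DEHP replicate 1 the lowest of all. No test was run on these sums and shares, since the members were chosen with results of these data known.

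**Figure D3:**
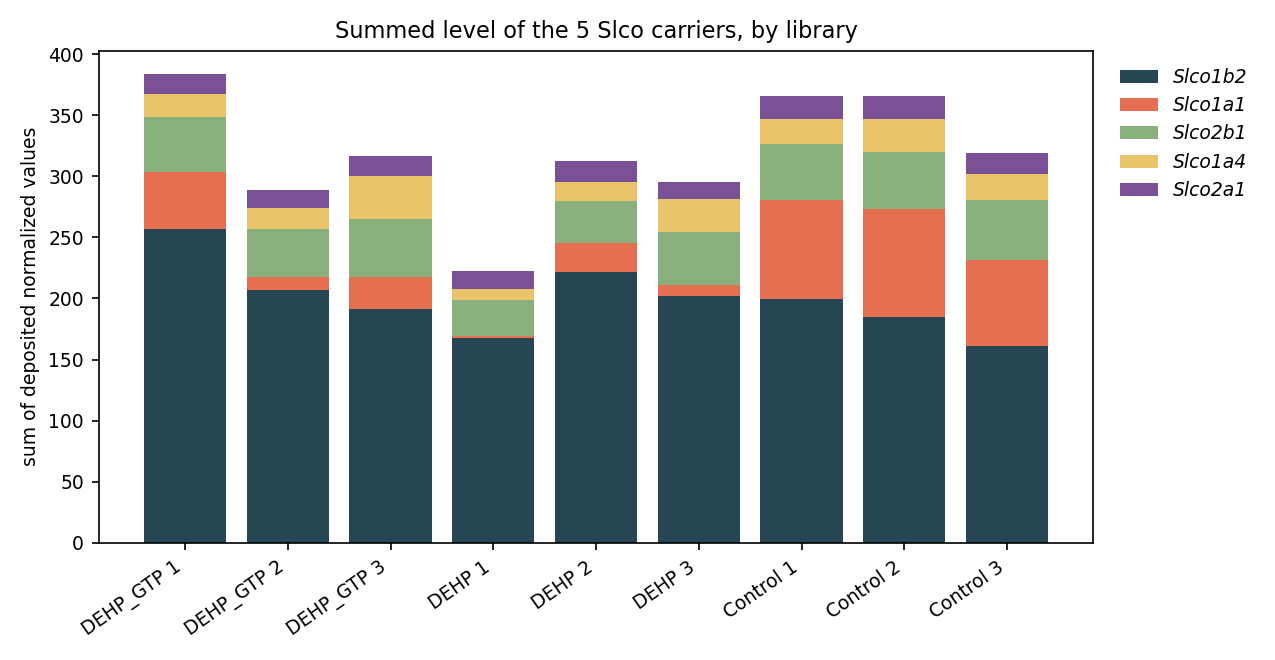
Sum of the deposited normalized values of the 5 Slco carriers (vertical axis, from 0) in each library, coloured by gene. The Slco1a1 part is 22.0% to 24.2% of the bar in each Control library and 0.539% to 12.1% in the treated ones.

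Between genes, levels were compared on the authors' scale, which appears to be per transcript length. This was read from 986 genes listed at 0 in at least 2 libraries. Genes whose smallest value above 0 was under 0.05 were left out. Across the 986, that smallest value fell with transcript length (Spearman rho -0.322). The rho is a description across genes, which are not independent and were cut on the value compared. In Control livers the order of mean levels was Slco1b2 at 182.1, Slco1a1 at 79.66, Slco2b1 at 47.27, Slco1a4 at 22.77, Slco2a1 at 18.15 and Slc22a7 at 12.02, and no neighbours in that order overlapped. In DEHP_GTP livers Slco1b2 at 218.6 was again first, and Slco2b1 at 43.82 now stood before Slco1a1 at 27.73 and Slco1a4 at 23.63, with overlap between each of these neighbours. In DEHP livers Slco1a1 at 11.35 stood below Slco2b1, Slco1a4 and Slco2a1, and its libraries overlapped with those of Slco2a1 above it and Slc22a7 below it. Averaged over all libraries, Slco1b2 was above 95.1% of the genes tested and Slc22a7 above 45.97%.

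The effect of adding polyphenols to the phthalate was read from DEHP_GTP against DEHP. All 6 carriers had a log2 fold change above 0, with a median of 0.40 beside -0.01 over all genes, and none was called. Single libraries moved this median both ways. It was 0.15 without DEHP replicate 1, the lowest DEHP library for 5 of the 6, and 0.23 without DEHP_GTP replicate 3. Without DEHP replicate 2 it was 0.38. Higher medians came without DEHP replicate 3 (0.56), DEHP_GTP replicate 2 (0.51) and DEHP_GTP replicate 1 (0.45). Slco2a1 was at -0.014 without DEHP replicate 3. Slco2b1 was at 0.16, and Slco1b2 at 0.04, without DEHP replicate 1. Limma called 0 of 10388 genes (0%) there, with or without trend and robust estimates. Without DEHP replicate 2, 86 were called. Rescaling without the Mup genes gave 38 and rescaling to equal totals 5, while quantile normalization and median centring gave 0. An unadjusted limma p below 0.05 was found for 14.7% of genes, among them Slc22a7 and Slco2b1. Both comparisons that involve DEHP use the same DEHP libraries, so a high or low DEHP value moves them in opposite directions. In DEHP_GTP against Control, limma called 10.4% of all genes, 9.68% higher (1006 genes) and 0.76% lower (79 genes), and quantile normalization gave 172 and 110. In that comparison 3 of the 6 carriers (Slco1a1, Slco2a1 and Slc22a7) had every DEHP_GTP library below every Control library, against 4.29% of all genes.

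Beyond the 6 members, the SLC22 family was measured as a list. Of 24 other family members, 22 were in the table and 12 were tested. Under DEHP 3 of the 12 rose and 1 fell, where 21.6% of all genes were called higher and 3.91% lower, and the median log2 fold change was 0.27, beside 0.12 over all genes. The risers were Slc22a18 by 0.44 (SE 0.09), Slc22a27 by 1.04 (SE 0.27) and Slc22a29 by 0.70 (SE 0.14). Slc22a27 was at 3.18, 1.03 and 1.66 in DEHP libraries and 0.41, 0.5 and 0.24 in Control libraries. Slc22a29 was at 1.18, 0.66 and 1.19, and at 0.34, 0.29 and 0.07. Both are near the floor and passed the filter only through treated libraries, so counting them as risers is not independent of that filter. The one that fell was Slc22a28, by 1.98 (SE 0.44), with 0.54, 1.97 and 1.67 in DEHP libraries and 7.75, 8.71 and 7.83 in Control libraries. Slc22a27, Slc22a28 and, below, Slco3a1 were named after their values were seen, and values of Slc22a27, Slc22a28 and Slc22a29, which are close relatives, are uncertain. Under DEHP_GTP against Control, Slc22a18, Slc22a27 and Slc22a29 rose and none fell, where 9.68% of all genes were called higher and 0.76% lower, and Slc22a28 was at -1.53 (SE 0.44, limma adjusted p = 0.0668). Of 10 other Slco genes, 7 were in the table and only Slco3a1 was tested, at -0.21 under DEHP (SE 0.14, limma adjusted p = 0.299).

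Genes that act on substrates of these carriers were counted as lists, beside the 21.6% of all genes called higher and 3.91% called lower under DEHP, and the 9.68% and 0.76% under DEHP_GTP against Control. Of 7 genes of bilirubin handling, 4 rose and none fell under DEHP, and 3 rose and none fell under DEHP_GTP against Control. Ugt1a1, which conjugates bilirubin, was at 252.89, 275.41 and 225.12 in DEHP_GTP, 274.67, 245.6 and 211.43 in DEHP and 170.19, 176.43 and 148.52 in Control libraries. It rose by 0.60 under DEHP_GTP and by 0.56 under DEHP (SE 0.12 each). Abcc3, which exports conjugates back to the blood, rose by 0.44 under DEHP (SE 0.09). Of 9 tested prostaglandin genes, 4 rose and 1 fell under DEHP. Hpgd, which inactivates prostaglandins, rose by 0.67 under DEHP_GTP and by 0.64 under DEHP (SE 0.11 each). Of 8 tested thyroid hormone genes, 2 rose and 3 fell under DEHP, so the risers were near the share of all genes. Dio1, the deiodinase of liver, fell by 0.65 under DEHP_GTP and by 0.83 under DEHP (SE 0.14 each).

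Regulators known to act on such carriers were counted at the transcript level, in a list that also holds Por, an enzyme gene. Of 20 tested, 4 rose and 4 fell under DEHP, Por among the latter, and 2 rose and none fell under DEHP_GTP against Control. The risers were near the shares of all genes called higher, 21.6% under DEHP and 9.68% under DEHP_GTP, while 3.91% of all genes were called lower under DEHP. The receptor genes Nr1i2 (PXR) at -0.01, Nr1i3 (CAR) at 0.07, Ppara at -0.28 and Hnf4a at -0.06 did not pass under DEHP. Nr0b2 (SHP), a repressor in bile acid feedback, rose by 1.34 under DEHP_GTP and by 1.95 under DEHP (SE 0.32 each), and Stat5b rose by 0.48 under DEHP (SE 0.08). Against the same shares, which depend on scaling as given above, 3 further lists were counted. All lists were chosen with earlier results of these data known, so these counts are descriptions only. Of 34 tested target genes of CAR and PXR, 18 rose and 3 fell under DEHP, with Cyp2b10 at 2.87 (SE 0.37) and Cyp3a11 at 0.74 (SE 0.13). Por, counted above, was also among those 3. Under DEHP, 16 of the 27 tested male-biased genes fell and 2 rose, with a median of -1.21, and of 12 tested female-biased genes 6 rose and 1 fell with a median of 1.14. Of those 6, 3 (Cyp2b9, Cyp2b10 and Abcc4) are also in the list of CAR and PXR targets. The other 3 were Cyp4a10, up by 4.51 (SE 0.30), Cyp4a14, by 5.19 (SE 0.31), and Cyp2a4, by 4.89 (SE 1.11). Both male-biased risers, Cyp4a12a by 1.47 (SE 0.14) and Cyp4a12b by 2.20 (SE 0.22), are Cyp4a genes as well. Cyp2b9 and Abcc4 were below 1 in every Control library and passed the filter only through treated libraries. Abcc4 was also among the prostaglandin risers.

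Markers of other cell types were set beside these results. None of the tested endothelial, stellate, cholangiocyte, adipocyte or red blood cell markers was called in any comparison (19, 12, 6, 6 and 6 genes), and of 14 Kupffer cell markers 1, Cd5l, rose by 0.69 under DEHP (SE 0.21). The Kupffer cell markers lay mostly above 0, 13 of 14 under DEHP (median 0.41) and 14 of 14 under DEHP_GTP against Control (median 0.29), beside 0.12 and 0.11 over all genes. Of the 12 adipocyte markers, 6 failed the filter and were not tested, among them Adipoq, Plin1 and Lep, which were listed at 0 outside Control replicates 1 and 2. The carbonic anhydrase gene Car3, also abundant in liver, made up most of the summed list in every library. Without it, the other 11 summed to 29.9 to 59.3 in DEHP_GTP and 55.0 to 373.2 in DEHP libraries, and to 1035, 1608 and 14.25 in Control replicates 1, 2 and 3. Fabp4 alone was at 361.68 in the highest DEHP sum, 373.2 in DEHP replicate 1. The adipocyte genes given by name here, Adipoq included, were chosen after their values were seen. The 12 hepatocyte markers summed to 78279 to 93802 in DEHP_GTP, 78665 to 82885 in DEHP and 101668 to 106349 in Control libraries. Under DEHP 3 of them fell, Alb among them, and 2 rose, where 3.91% of all genes were called lower and 21.6% higher. The part of these markers in the carrier results was not tested, apart from the values set against Control replicate 3 only.

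Genes most alike to each carrier in log2(value + 1) over the 9 libraries, up to 3 for each, were taken from 6242 genes with a mean of at least 5. The 9 libraries share the 3 group differences, so Pearson correlations over them are descriptions only. Slco1a1 was most like Serpina3k (0.994), Serpina1c (0.990) and Mup3 (0.989), secreted liver proteins. Slc22a7 was most like Pklr (0.986), liver pyruvate kinase, Hsd11b1 (0.968), which regenerates active glucocorticoid, and Map2k3 (0.967), a kinase upstream of p38. Pklr was at 42.1, 36.47 and 40.17 in DEHP_GTP, 18.33, 24.83 and 27.94 in DEHP and 97.25, 81.84 and 107.43 in Control libraries, with the same order of groups and no overlap. Slco2a1 was most like Mgat2 (0.963), C8a (0.927) and C9 (0.902), and Slco2b1 like Aspdh (0.962), Prodh (0.961) and Slc37a4 (0.960). Slco1a4 was most like Apbb3 (0.922), Gsdmd (0.899) and Aspdh (0.897), and Slco1b2 was like Armc1 (0.923) and Usp30 (0.918).

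**Figure D4:**
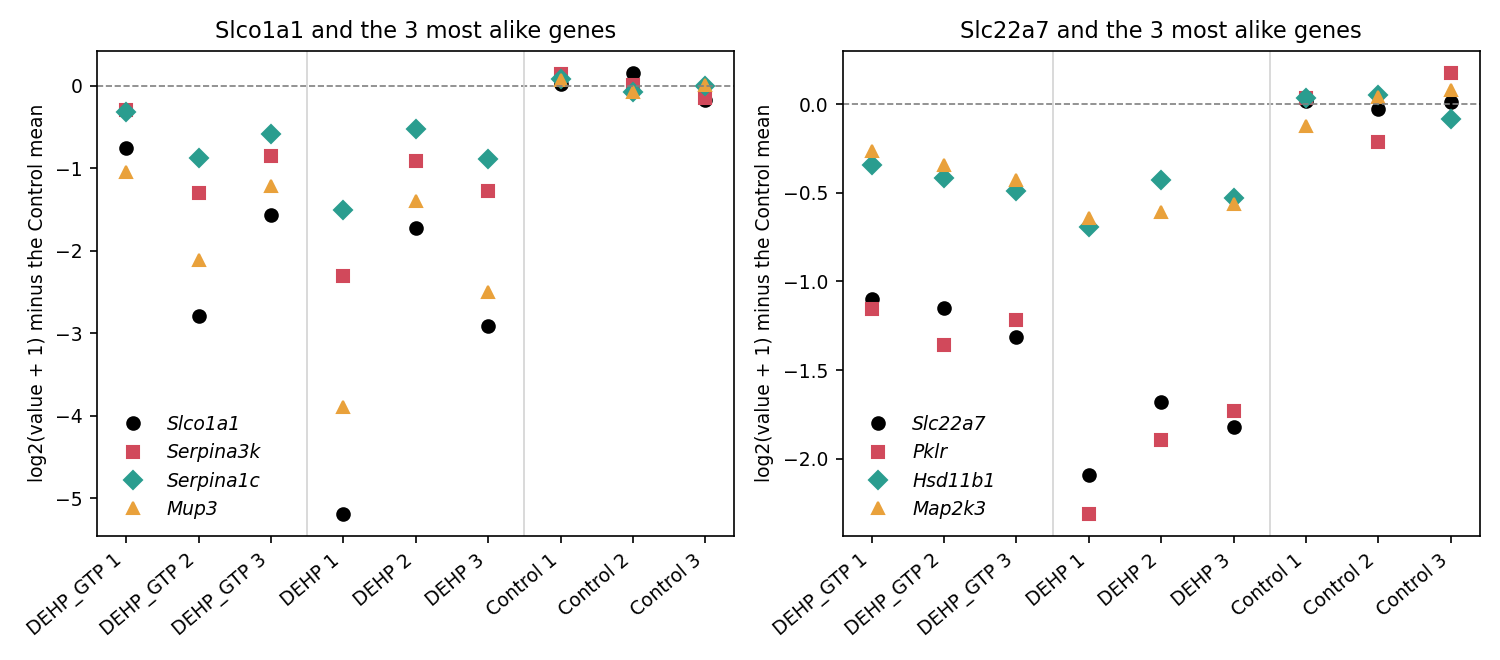
Difference of log2(value + 1) from the mean of the 3 Control libraries (vertical axis) for Slco1a1 and Slc22a7, each with its 3 most alike genes, in every library. The Slco1a1 set is lowest in DEHP replicate 1 and is spread within both treated groups, and the Slc22a7 set lies below 0 in all 6 treated libraries.

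**Figure D5:**
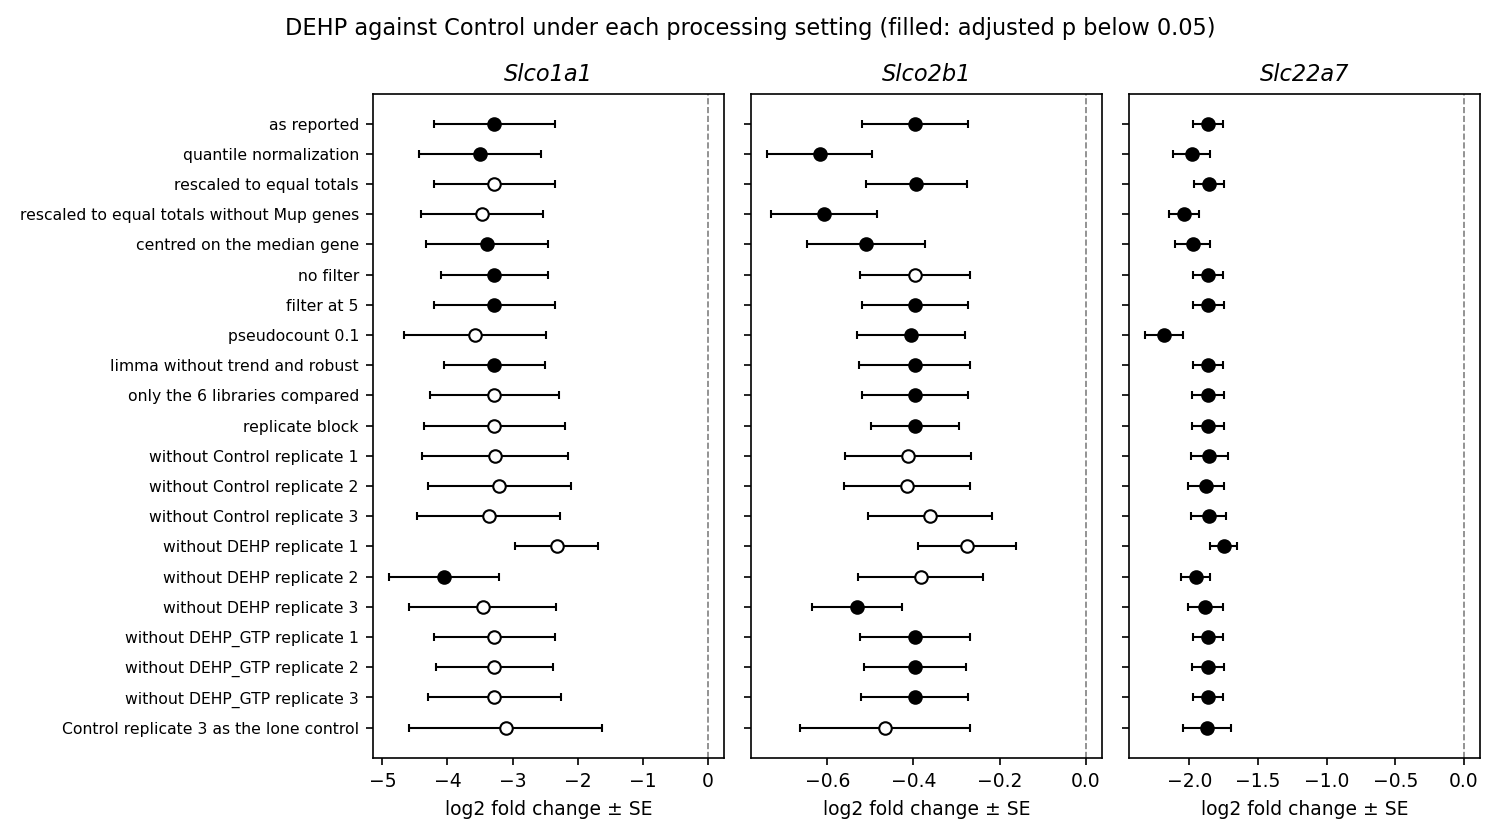
Log2 fold change ± SE under DEHP against Control (horizontal axis, a different scale in each panel) for the 3 called carriers as reported and in each of 20 other settings; filled points passed an adjusted p of 0.05. Slc22a7 is filled throughout, Slco2b1 in 13 and Slco1a1 in 6 of the 20 settings, and all points lie below 0.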

How the data were processed

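Per the labels' protocols, poly(A) RNA was captured on oligo(dT) beads and copied into cDNA from random primers after fragmentation. The submitters' processing notes list mm9, CASAVA 1.7 and limma with no role for any of them, and the aligner, counter and annotation were not given in the sources used here. Per symbol and library, the authors deposited a normalized signal with 2 decimals. From there, values were taken as log2(value + 1), genes reaching 1 in 3 or more libraries entered the test (10388 of 18148), and 1 limma model (version 3.58.1, R 4.3.3, trend and robust estimates) took in all 9 libraries with a common estimate of spread. Groups were read from the sample titles. The code was run on simulated data of 10388 genes with equal spread in every group. In these, 67, 67 and 66 genes were changed by 0.5, 1 and 2 on the log2 scale. It recovered 50.7%, 89.6% and 98.5% of them, with 5 false calls. The deposited data had 25.5% of genes called under DEHP and unequal spread for carriers such as Slco1a1, so these rates need not hold there. Of the symbols, 18078 matched RefSeq names (GRCm38.p6); no coordinates were joined to the deposited values. The 6 carriers and all gene lists were chosen with earlier results of these data known. Related genes were named where they had the 2 smallest adjusted p of their list in a comparison with Control, or by a fixed choice; others are said to be outside this rule, and a few genes the rule names are not reported here. Alternatives were 4 scalings, 2 filters, a pseudocount of 0.1, limma without trend and robust estimates, only the 6 libraries compared, a replicate block, leaving out each library, and Control replicate 3 as the lone control.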

Additional observations from a re-analysis of the deposited data

How the results depend on the processing

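Of 354 log2 fold changes recomputed for the 6 carriers under 20 settings (19 for DEHP_GTP against DEHP), 316 kept their direction and their side of the threshold, 22 were no longer called, 7 became called and 9 changed sign. The sign changes were all in values that were not called. They were Slco1b2 in DEHP against Control after quantile normalization (-0.20), rescaling without the Mup genes (-0.10) and centring on the median gene (-0.0026). Slco1a4 in DEHP_GTP against Control turned to 0.074 after rescaling to equal totals and to 0.13, 0.13 and 0.17 without Control replicate 2, DEHP_GTP replicate 1 and DEHP_GTP replicate 2 (leaving out each library in turn gave -0.315 to 0.17), and to 0.13 with Control replicate 3 as the lone control. Slco2a1 in DEHP_GTP against DEHP turned to -0.014 without DEHP replicate 3. The number of carriers called in DEHP against Control was 3, and with the lone control it was 1. In DEHP_GTP against Control it was 1, and 0 with the lone control, a fit with fewer samples in which the single Control library is assumed to vary as the other groups do. In DEHP_GTP against DEHP it was 0, and 1 (Slc22a7) after rescaling to equal totals, with the Mup genes or without; the cause was not tested. Over all genes, 2654 were called in DEHP against Control, 1703 without Control replicate 1 and 757 with the lone control, and 1085 in DEHP_GTP against Control, 254 without DEHP_GTP replicate 2, 277 without Control replicate 3 and 10 with the lone control. Leaving out each library in turn gave 1 to 3, 1 to 1 and 0 to 1 carriers called in the 3 comparisons. Centring removed the shift of the median gene (0.12 in DEHP against Control) and gave -3.39 for Slco1a1, -0.51 for Slco2b1 and -1.98 for Slc22a7. With a replicate block, 2, 1 and 0 carriers were called, and Slco1a1 lost its call under DEHP (-3.28, SE 1.08). The replicate numbers did not pair the libraries: deviations of same-numbered libraries correlated at -0.263 to 0.17, with 1 of 9 pairs above 0.1, and the best match had the same number in 3 of 18 cases. Depth is unknown, so counting error could not be given. It matters most at low levels, such as Slco1a1 at 1.2 in DEHP replicate 1 and Slc22a7 at 2.06 to 3.06 in DEHP livers.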
